A study of Mus musculus with 2 samples.

Results

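The 10 genes described here carry glucose through the cell: the glucose transporters Slc2a1 and Slc2a3, and the glycolysis enzymes Hk2, Pfkp, Aldoa, Gapdh, Pgk1, Eno1, Pkm and Ldha. They were taken by name from the 15121 genes of a single-cell expression table, and all 10 were in it. The table holds droplet 3′ RNA libraries of what the labels call T cells, taken on day 5 in NILER, a melanoma model grown in mice of a matching strain. Its parent is the mouse melanoma line NIL, which carries Nras Q61R, and ultraviolet exposure gave it a number of mutations like that of human melanoma. One library of 9312 cells was untreated, and the other, of 8078 cells, was treated with Trametinib, a MEK inhibitor, plus BGB-283, an inhibitor of RAF kinases. Both libraries come from the same model, and the number of mice, the dose and the way the T cells were sorted are not given in the sources used here.

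Glycolysis splits glucose into pyruvate and gains ATP without oxygen. Resting T cells use little glucose, and on activation they raise glucose transporters and glycolysis enzymes, partly through signals that reach MYC and HIF1A. Many activated T cells then reduce pyruvate to lactate even where oxygen is present. Regulatory T cells, which express Foxp3, also use glycolysis when they divide or move into tissue.

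Cells were placed in 5 gates by their unique molecular identifiers (UMIs), each of which stands for 1 captured RNA molecule. Naive-state CD8 cells had a Cd8a or Cd8b1 UMI and a UMI of naive T cell markers such as Ccr7, with no UMI of Pdcd1 or Cd44, and numbered 2271 untreated and 522 treated cells. Pdcd1-positive CD8 cells had a UMI of Pdcd1, the gene of the inhibitory receptor PD-1, and numbered 1289 and 3260. CD4 cells had a Cd4 UMI and none of Foxp3, Cd8a or Cd8b1, and numbered 984 and 498. Foxp3-positive cells, without Cd8a or Cd8b1 UMIs, were split by a UMI of Klrg1, a marker of regulatory T cells in tissue, into 337 and 293 Klrg1-positive cells and 217 and 145 others. Levels are given as CPM, the UMIs of a gene per 1000000 UMIs of its gate in 1 library, with exact 95% Poisson intervals, and ratios have exact conditional binomial intervals. All these intervals cover counting error only. Each group was 1 library, so no spread between animals exists, no test was possible, and treatment and library cannot be told apart.

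Among markers that the gating did not use, those of the CD8 gates followed the gate names, and those of tissue regulatory T cells followed the Klrg1 split in part, so the Foxp3 gates are called by their rule. Lef1 and Tcf7 are transcription factors of naive T cells. In naive-state cells they stood at 343.6 and 300 CPM untreated and at 303.5 and 307.6 CPM treated. In Pdcd1-positive CD8 cells they stood at 31.7 and 37.0 CPM untreated and at 10.4 and 7.92 CPM treated. Tox, a factor of chronically stimulated T cells, was at 109.4 CPM (untreated) and 261.1 CPM (treated) in Pdcd1-positive CD8 cells and at 32.5 and 31.7 CPM in naive-state cells. Il1rl1, the receptor of interleukin 33, stood at 33.9 and 171.2 CPM in Klrg1-positive and at 43.1 and 170.4 CPM in other Foxp3 cells, and Areg, a repair factor, at 230.5 and 306.5 CPM and at 168.2 and 405.6 CPM. Ccr8, a chemokine receptor, was at 16.3 and 13.5 CPM in Klrg1-positive and at 2.19 and 13.2 CPM in other Foxp3 cells. Of 6 melanoma markers, only Pmel was in the table, at 0 to 1.26 CPM in all gates. The summed level of 7 macrophage markers (C1qa, C1qb, C1qc, Apoe, Lyz2, Csf1r and Adgre1), none of them at 0 in any gate, was higher in the untreated library in all 5 gates: 336.2 against 212.5 CPM in naive-state cells, 1022 against 421.7 in Pdcd1-positive CD8, 3976 against 849.5 in CD4, 1527 against 263.9 in Klrg1-positive Foxp3 and 5304 against 2876 in other Foxp3 cells. Apoe alone was higher in the treated library in 3 gates, with 80.3 and 139.3 CPM in naive-state, 256.6 and 263.0 in Pdcd1-positive CD8 and 1555 and 1834 in other Foxp3 cells. In Pdcd1-positive CD8 cells 4 stroma markers summed to 1.89 CPM untreated and 64.3 CPM treated, and 6 dendritic markers to 668 and 175 CPM. Most of the dendritic sum was H2-Aa (366.0 and 115.8 CPM) and Ccr7 (286.9 and 52.4 CPM), and Ccr7 is also a naive T cell marker. Xcr1, Clec9a and Flt3 were lower in the treated library but at most at 6.46 CPM, and Cd209a was higher (2.09 and 3.77 CPM). The part of other cells' RNA in the results was not tested beyond the macrophage markers. Summed, the 3 erythroid markers were higher in the untreated library in all 5 gates. They were at 515 against 20.8 CPM in naive-state, 122 against 0.311 CPM in Pdcd1-positive CD8 and 1010 against 0.782 CPM in CD4 cells. In other Foxp3 cells the sums were 5.12 and 3.30 CPM, and Hbb-bs alone was higher in the treated library (2.19 and 3.30 CPM). Across the libraries 35 cell barcodes were shared; without the 17 untreated and 14 treated gated cells that carry them, no member's log2 ratio changed by more than 0.03 and no count of members at 1.5-fold changed.

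Promoters are shown first, since 9 of the 10 genes had an entry in RefSeq's table for the build GRCm38.p6 and several are textbook targets of hypoxia-inducible factors (HIF). The letters ACGTG and GCGTG, the core that HIF proteins bind, were searched on both strands in windows of 300 bases, from 250 before to 50 after each start. They occurred in at least 1 window of all 9 matched genes and in 13 of their 15 windows, against 43.8% of all 32851 windows. Some windows of Aldoa and of Eno1 overlap and share the same matches, so the 15 are not independent. The share is of windows, so the count of genes cannot be set against it. Whether the members hold more matches than other genes was not tested. CACGTG, the E-box bound by MYC among others, contains ACGTG and overlaps with it, and was in 7.2% of all windows. Among the members' windows it was found only in 1 window of Ldha, at 2 places. The 250 bases before the start are printed for 4 genes with 1 listed start, 5′ to 3′ on the gene's strand, with matches in capitals, because they show a transporter, the entry enzyme and a pair of enzymes of the later steps whose levels differed in unlike ways. They lie at chr4:119108495-119108744 (plus strand, Slc2a1), chr6:82774455-82774704 (minus strand, Hk2), chr6:125165774-125166023 (minus strand, Gapdh) and chrX:106186850-106187099 (plus strand, Pgk1).
Slc2a1: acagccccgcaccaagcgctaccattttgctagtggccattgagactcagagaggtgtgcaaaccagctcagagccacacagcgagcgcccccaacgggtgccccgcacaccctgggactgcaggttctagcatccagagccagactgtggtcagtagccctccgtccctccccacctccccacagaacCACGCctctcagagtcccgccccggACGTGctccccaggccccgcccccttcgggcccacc
Hk2: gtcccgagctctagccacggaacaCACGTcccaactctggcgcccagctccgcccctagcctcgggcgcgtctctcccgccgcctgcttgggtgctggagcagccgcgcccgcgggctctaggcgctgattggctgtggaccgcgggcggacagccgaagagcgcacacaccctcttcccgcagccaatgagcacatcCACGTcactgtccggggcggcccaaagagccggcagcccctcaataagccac
Gapdh: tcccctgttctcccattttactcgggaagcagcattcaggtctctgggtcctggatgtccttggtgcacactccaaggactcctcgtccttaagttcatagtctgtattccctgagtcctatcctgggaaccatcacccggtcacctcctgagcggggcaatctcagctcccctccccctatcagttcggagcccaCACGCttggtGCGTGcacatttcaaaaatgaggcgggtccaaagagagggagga
Pgk1: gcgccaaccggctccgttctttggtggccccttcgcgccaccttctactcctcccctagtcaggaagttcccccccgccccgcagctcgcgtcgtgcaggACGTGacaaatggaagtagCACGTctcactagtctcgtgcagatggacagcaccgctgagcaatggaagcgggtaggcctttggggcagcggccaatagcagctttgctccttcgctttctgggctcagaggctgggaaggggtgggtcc
Each of the 4 holds 2 matches. A match describes the letters only, and does not show that a factor binds there.

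The members were lower in the treated library chiefly in Pdcd1-positive CD8 cells and in Klrg1-positive Foxp3 cells, and the enzymes from Aldoa to Ldha carried most of this difference. Summed over the 10 genes, Pdcd1-positive CD8 cells stood at 9699 CPM untreated and 4135 CPM treated, and Klrg1-positive Foxp3 cells at 9544 and 4755 CPM. CD4 cells stood at 5115 and 3401 CPM, other Foxp3 cells at 6256 and 4356 CPM, and naive-state CD8 cells at 2352 and 1884 CPM. The median log2 ratio of treated over untreated was -1.12 in Pdcd1-positive CD8, -0.92 in Klrg1-positive Foxp3, -0.69 in CD4, -0.46 in other Foxp3 and -0.20 in naive-state CD8 cells. Over all genes tested, those with 50 UMIs and 20 CPM in 1 of the libraries and UMIs in both, the median lay between -0.06 and 0.08. All 10 members passed this filter in 4 gates and 8 did in other Foxp3 cells, where Slc2a3 and Hk2 had under 50 UMIs.

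**Figure D1:**
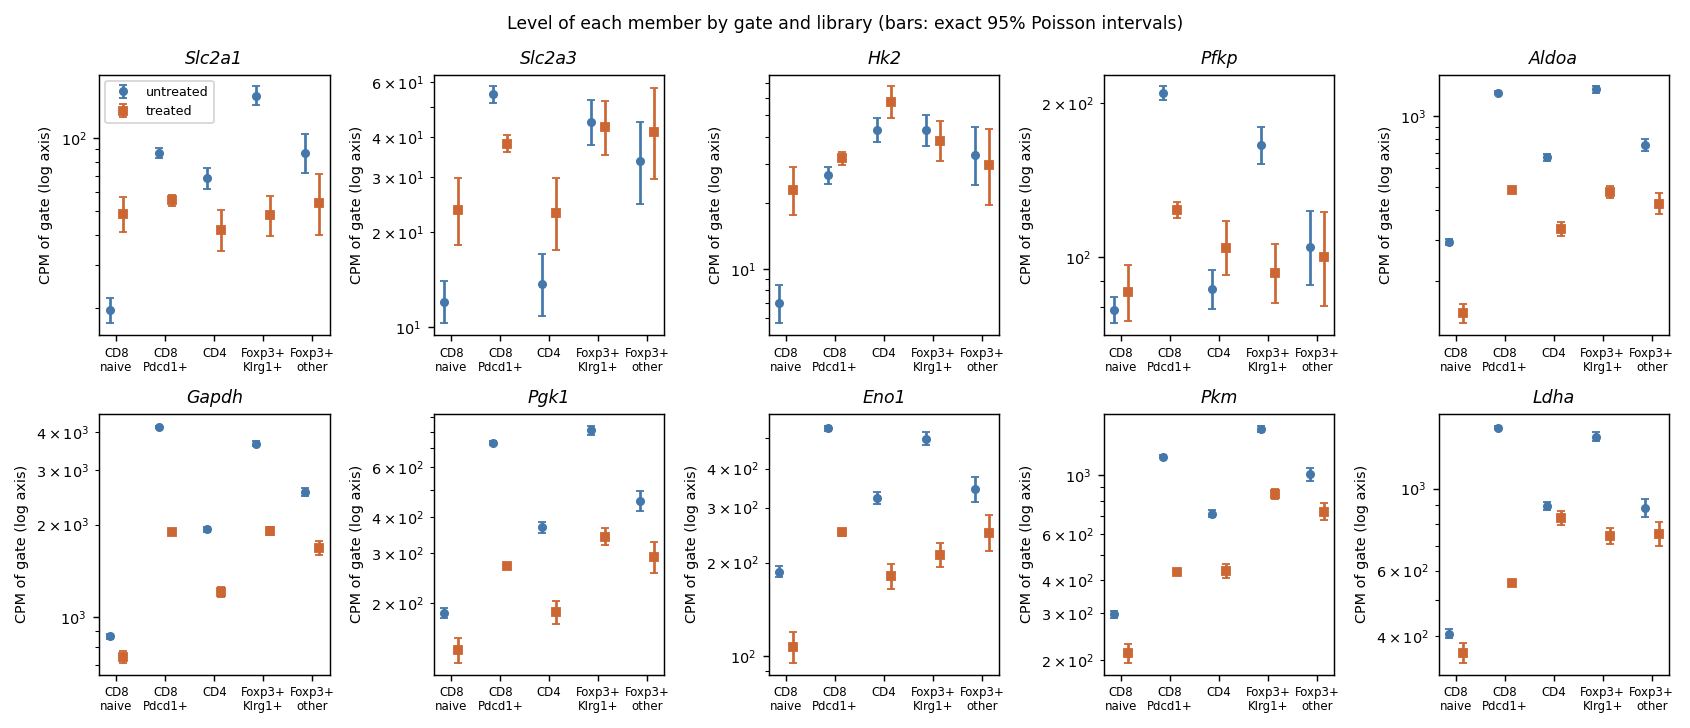
CPM of each of the 10 genes on a log axis, by gate, in the untreated (circles) and treated (squares) library; bars are exact 95% Poisson intervals of 1 library each. The treated library lies below the untreated one in all 5 gates for Aldoa, Gapdh, Pgk1, Eno1, Pkm and Ldha, while Slc2a1, Slc2a3 and Hk2 lie above it in naive-state CD8 cells.

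In Pdcd1-positive CD8 cells, 8 of 10 members were at least 1.5-fold lower in the treated library, against 21.2% of 5915 genes, and 6 were at least 2-fold lower, against 9.84%. None was 1.5-fold or 2-fold higher, against 29.3% and 15.2% of genes. Among the transporters, Slc2a1, the main basal glucose importer, went from 86.4 CPM untreated to 55.5 CPM treated, 1.56-fold lower (1.45 to 1.67). Slc2a3, a high-affinity importer, went from 54.7 to 38.2 CPM, 1.43-fold lower (1.31 to 1.56), short of the 1.5-fold mark. Both importers were thus lower by less than the later enzymes.

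At the entry of the pathway the pair of kinases differed. Hk2, the inducible hexokinase that traps glucose as its phosphate, stood at 26.6 CPM untreated and 31.8 CPM treated, a ratio of 1.20 (1.07 to 1.33). Pfkp, a phosphofructokinase that commits sugar to glycolysis, went from 209.6 to 123.9 CPM, 1.69-fold lower (1.62 to 1.77). Hk2 was the 1 member that was not lower in this gate.

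The steps from the splitting of fructose bisphosphate onward had the lowest ratios. Aldoa, the aldolase that cuts the sugar into trioses, went from 1253 to 486.4 CPM, 2.58-fold lower (2.52 to 2.63). Gapdh, which oxidises glyceraldehyde phosphate, went from 4164 to 1897 CPM, 2.20-fold lower (2.17 to 2.22). Pgk1, which makes the first ATP of the pathway, went from 729.6 to 269.0 CPM, 2.71-fold lower (2.63 to 2.79). These 3 enzymes were 2.20-fold to 2.71-fold lower, with intervals far from 1.

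The last steps were similar in size. Eno1, the enolase, went from 539.2 to 249.9 CPM, 2.16-fold lower (2.09 to 2.23). Pkm, the pyruvate kinase that makes pyruvate and ATP, went from 1174 to 428.6 CPM, 2.74-fold lower (2.68 to 2.80). Ldha, which turns pyruvate into lactate, went from 1461 to 555.0 CPM, 2.63-fold lower (2.58 to 2.69). Gapdh, Eno1, Pgk1 and Aldoa have near-identical processed copies in the genome, so reads shared with a copy are uncertain. The listed copy Eno1b stood at 0 to 1.78 CPM in all gates.

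The other glycolysis enzymes of a list of 15 were lower too. Of 6 that reached 20 CPM in Pdcd1-positive CD8 cells, 5 were at least 1.5-fold lower, against 21.2% of genes, and none higher, against 29.3%. Their median log2 ratio was -1.55. Tpi1, which interconverts the trioses, had the lowest ratio of the list, from 686.3 to 149.3 CPM (log2 ratio -2.20). The muscle enolase Eno3 followed with 32.8 and 8.78 CPM (-1.90), and reached 20 CPM only in the untreated library. Gpi1, which turns glucose phosphate into fructose phosphate, went from 592.8 to 377.7 CPM (-0.65), and Hk1, the constitutive hexokinase, stood at 53.6 and 54.2 CPM (0.02). Both hexokinases thus differed by 1.20-fold or less, while each later enzyme at 20 CPM, from Gpi1 to Ldha, was at least 1.5-fold lower. Of 8 other glucose transporters in the list, 5 were in the table and none reached 20 CPM in any gate.

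**Figure D2:**
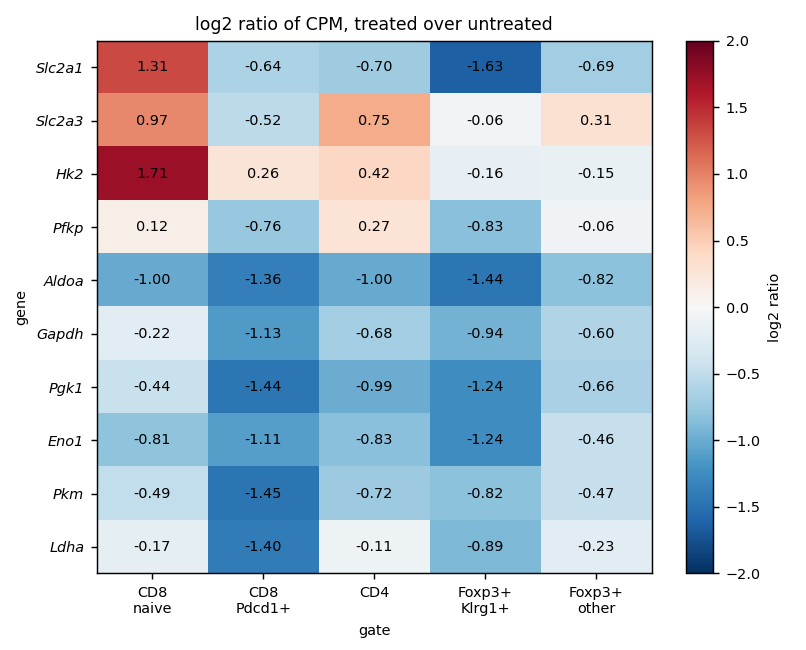
Colour and number give the log2 ratio of CPM, treated over untreated, for each of the 10 genes (rows) in each of the 5 gates (columns). The lowest values are those of Slc2a1 in Klrg1-positive Foxp3 cells (-1.63) and of Pkm in Pdcd1-positive CD8 cells (-1.45), and the highest is that of Hk2 in naive-state CD8 cells (1.71).

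Cells of the Pdcd1-positive CD8 gate also differed between libraries in depth and state. The median UMIs per cell were 12365 untreated and 6942 treated. The naive T cell factors Lef1 (31.7 and 10.4 CPM) and Tcf7 (37.0 and 7.92 CPM) were lower in the treated library, and the cells were not split by them. A UMI of the proliferation genes Mki67 or Top2a was found in 59.8% of untreated and 26.7% of treated cells, a UMI of granzymes C to G in 45.2% and 26.2%, and 2 or more macrophage UMIs in 26.4% and 11.0%. Here and below, the macrophage UMIs of a cell were counted over C1qa, C1qb, C1qc, Apoe, Lyz2 and Csf1r, without Adgre1. Of 12 cell cycle genes, 11 were at least 1.5-fold lower in the treated library, against 21.2% of genes (median log2 ratio -1.67). Ccnb1, which reached 20 CPM only in the untreated library, stood at 50.8 and 7.46 CPM. Birc5 stood at 173.1 and 41.0 CPM and Mki67 at 114.1 and 55.2 CPM, while Pcna, a replication clamp, was at 135.2 and 190.9 CPM.

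The members' difference was present in each of these subsets. The median log2 ratio was -1.002 in cells with a Mki67 or Top2a UMI (771 untreated and 869 treated cells) and -1.09 in those without (518 and 2391). It was -1.06 with and -1.03 without a granzyme C to G UMI, and -1.15 without the cells that had 2 or more macrophage UMIs. By depth it was -1.002 in the shallowest of 4 bins (median of 3640 and 4372 UMIs per cell), then -1.03 and -0.89, and -0.86 in the deepest bin (27905 and 23355 UMIs, 313 and 61 cells). With all 3 kinds of cells left out together, 281 untreated and 1633 treated cells of similar median depth (6920 and 6330 UMIs) gave a median of -0.95.

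The transporters and Hk2 behaved otherwise in that last subset. Slc2a1 stood at 60.4 and 56.1 CPM there and Slc2a3 at 37.9 and 36.3 CPM, with ratios of 0.93 (0.77 to 1.13) and 0.96 (0.75 to 1.23) whose intervals include 1. Hk2 stood at 14.5 and 32.2 CPM, 2.22-fold higher in the treated library (1.54 to 3.32), and its log2 ratio was also higher, 0.85, in cells of 3000 to 10000 UMIs. Aldoa, Gapdh, Pgk1, Eno1, Pkm and Ldha kept log2 ratios between -1.36 and -0.91. These cells are those with no UMI of the named genes, which does not show that they were not cycling.

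**Figure D3:**
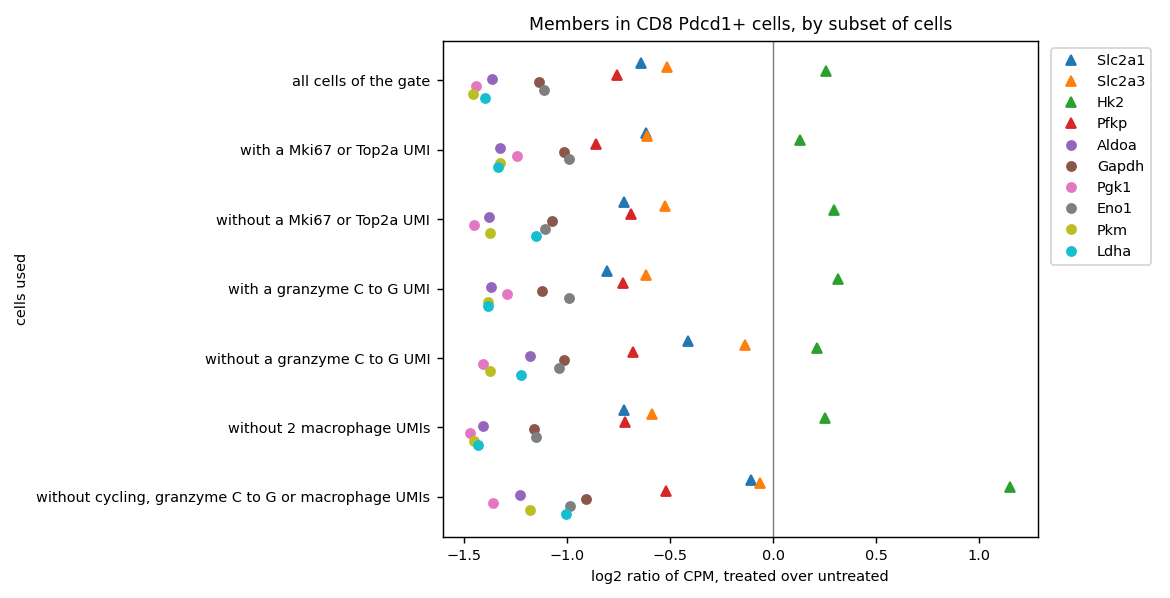
Log2 ratio of CPM, treated over untreated, of each gene (points) in Pdcd1-positive CD8 cells, for all cells and for 6 subsets of them. Circles, the enzymes from Aldoa to Ldha, stay below -0.9 in each subset, and triangles, the transporters, Hk2 and Pfkp, lie further right.

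Cell by cell, the same genes took a smaller share of the transcriptome. In the median Pdcd1-positive CD8 cell the 10 genes made up 0.885% of UMIs untreated (10th to 90th percentile 0.387 to 1.41%) and 0.341% treated (0.210 to 0.599%). The 10th percentile of the untreated cells was above the median of the treated ones, so the difference was not confined to a few very high cells. The median cell held 49 and 11 Gapdh UMIs, 15 and 3 Aldoa UMIs, 13 and 2 Pkm UMIs and 14 and 3 Ldha UMIs. These UMI counts also reflect the lower depth of the treated cells.

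**Figure D4:**
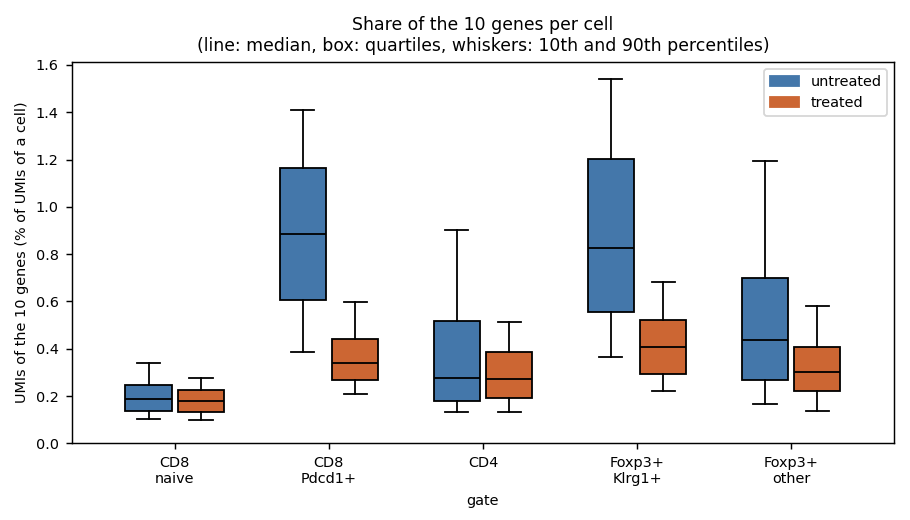
Share of a cell's UMIs that came from the 10 genes (%), by gate and library; the line is the median cell, the box the quartiles and the whiskers the 10th and 90th percentiles. Medians differ most in Pdcd1-positive CD8 cells (0.885 and 0.341%) and Klrg1-positive Foxp3 cells (0.828 and 0.407%), and are nearly equal in CD4 cells (0.277 and 0.274%).

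The step from naive-state to Pdcd1-positive CD8 cells was smaller in the treated library. In the untreated library each of the 10 genes was 2.66-fold (Pfkp) to 4.80-fold (Gapdh) higher in Pdcd1-positive than in naive-state cells. In the treated library these ratios were 1.14 (Slc2a1) to 3.32 (Aldoa), lower than the untreated ratio for all 10 genes. Eno1 had the least unequal pair, 2.88 (2.76 to 3.01) untreated and 2.34 (2.09 to 2.63) treated. The Slc2a1 ratio was 4.42 (3.88 to 5.03) untreated and 1.14 (0.96 to 1.36) treated, the latter with an interval that includes 1. These ratios rearrange the levels of the same gates and add no result of their own. For Slc2a1, Slc2a3 and Hk2 they rest on untreated naive-state levels under 20 CPM. Cells of both gates come from the same 2 libraries, and no test of this difference was possible.

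In naive-state CD8 cells the transporters and Hk2 were higher in the treated library, while several enzymes were lower. Here 3 of 10 members were at least 1.5-fold higher, against 29.5% of 5234 genes, and 2 were lower, against 23.5%. At 2-fold these counts were 2, against 15.6%, and 1, against 10.3%. The shares of members are thus near those of all genes in this gate, and the 3 higher members, each under 20 CPM in the untreated library, passed the filter only through the treated library, so their count supports nothing. Slc2a1 went from 19.6 to 48.7 CPM, 2.49-fold higher (2.02 to 3.06). Slc2a3 went from 12.0 to 23.5 CPM, 1.95-fold higher (1.45 to 2.60), and Hk2 from 6.98 to 22.8 CPM, 3.27-fold higher (2.36 to 4.51).

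These are low counts in this gate. Slc2a1 had 275 untreated and 143 treated UMIs, Slc2a3 169 and 69, and Hk2 98 and 67. The 10 highest cells held 13.5% and 14.7% of the Slc2a1 UMIs, 13.6% and 31.9% of the Slc2a3 UMIs, and 39.8% and 37.3% of the Hk2 UMIs. Among the enzymes Aldoa went from 293.0 to 146.5 CPM, 2.00-fold lower (1.81 to 2.21), and Eno1 from 187.0 to 106.9 CPM, 1.75-fold lower (1.56 to 1.97). Pgk1, Pkm, Gapdh and Ldha had log2 ratios from -0.49 to -0.17 and Pfkp 0.12. With no condition on Cd44 in the gate, 5 members were lower and the median log2 ratio was -0.46. No share of all genes is given for that wider gate. Per cell, the 10 genes together were at 0.186% and 0.180% of UMIs in the median cell.

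In Klrg1-positive Foxp3 cells, 8 of 10 members were at least 1.5-fold lower in the treated library, against 13.1% of 5842 genes, and 4 were at least 2-fold lower, against 4.04%. None was 1.5-fold or 2-fold higher, against 16.5% and 5.07% of genes. Slc2a1 had the lowest ratio, with 149.1 CPM untreated, the highest of its 10 levels, and 48.1 CPM treated, 3.10-fold lower (2.53 to 3.84). Aldoa went from 1293 to 476.8 CPM, 2.71-fold lower (2.54 to 2.90), Pgk1 from 808.5 to 341.5 CPM, 2.37-fold lower (2.19 to 2.56), and Eno1 from 499.6 to 211.2 CPM, 2.37-fold lower (2.14 to 2.62). Slc2a3, at 44.9 and 43.0 CPM, and Hk2, at 42.8 and 38.4 CPM, had treated over untreated ratios whose intervals include 1 (0.74 to 1.24 and 0.68 to 1.17).

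The remaining 4 members of that gate lay between these. Gapdh went from 3660 to 1907 CPM, Ldha from 1381 to 744.5 CPM, Pkm from 1500 to 851.6 CPM and Pfkp from 165.7 to 93.2 CPM, with log2 ratios from -0.94 to -0.82. The median log2 ratio of the 10 genes was -0.82 in cells with a Mki67 or Top2a UMI and -1.08 in those without, and -0.95 without cells of 2 or more macrophage UMIs. The difference was thus as large without those cells. Cell cycle genes had a median of -0.38 here. Of the 12, 5 were lower, against 13.1% of genes, and 1 higher, against 16.5%. Ccnb1, which reached 20 CPM only in the untreated library, stood at 44.6 and 17.3 CPM. Tubb5 stood at 799.3 and 389.1 CPM, Tyms at 58.2 and 56.1 CPM and Pcna at 83.2 and 148.8 CPM. Of 7 other glycolysis enzymes at 20 CPM, 5 were 1.5-fold lower, against 13.1% of genes (median -1.36). Tpi1 stood at 735.5 and 189.3 CPM and Pfkl, the liver-type phosphofructokinase, at 152.4 and 43.8 CPM. Eno3 stood at 20.5 and 15.2 CPM and Hk1 at 58.5 and 60.3 CPM.

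In CD4 cells 6 of 10 members were at least 1.5-fold lower, against 19.6% of 5913 genes, and 1 was higher, against 24.4%. At 2-fold 1 was lower, against 8.34%, and none higher, against 11.6%. Aldoa went from 667.2 to 332.5 CPM (2.01-fold lower, 1.86 to 2.16), Pgk1 from 368.2 to 185.0 CPM, Eno1 from 321.8 to 180.7 CPM, Pkm from 715.9 to 433.0 CPM, Gapdh from 1933 to 1210 CPM and Slc2a1 from 68.2 to 41.9 CPM. Slc2a3 went from 13.7 to 23.1 CPM, 1.68-fold higher (1.18 to 2.38), on 79 and 59 UMIs, and passed the filter only through the treated library. Ldha, at 897.3 and 833.1 CPM, was 1.08-fold lower (1.02 to 1.13), a much smaller difference than in Pdcd1-positive CD8 cells. Hk2 stood at 43.0 and 57.5 CPM and Pfkp at 86.6 and 104.4 CPM.

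Summed over the 10 genes, median CD4 cells were nearly equal and the upper tail differed. The median cell held 0.277% and 0.274% of its UMIs in the 10 genes, while the 90th percentile was 0.901% untreated and 0.512% treated. Some single genes differed in the median cell, with 1.5 and 1 Aldoa UMIs, 1 and 0 Pgk1 UMIs, 1 and 0 Eno1 UMIs and 2 and 1 Pkm UMIs. Ldha went the other way, with 2 untreated and 3 treated UMIs, and Gapdh was equal at 4 and 4. Without cells of 2 or more macrophage UMIs (11.9% of untreated and 6.43% of treated cells), the median log2 ratio was -0.38 and 3 members were 1.5-fold lower. No share of all genes is given for this subset. Cells of both libraries with no T cell UMI and 10 or more macrophage UMIs (177 and 146 cells) expressed the same enzymes, for example Gapdh at 2667 and 1812 CPM and Aldoa at 773.0 and 688.3 CPM.

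In other Foxp3 cells 4 members were at least 1.5-fold lower, against 18.2% of 3909 genes, and none higher, against 18.0%. At 2-fold none was lower, against 7.06%, and none higher, against 8.19%. Aldoa went from 752.5 to 426.4 CPM (1.76-fold lower, 1.57 to 1.99), Slc2a1 from 87.0 to 53.9 CPM (1.62, 1.15 to 2.30), Pgk1 from 455.6 to 289.1 CPM (1.58, 1.36 to 1.83) and Gapdh from 2554 to 1683 CPM (1.52, 1.43 to 1.61). Eno1 stood at 343.7 and 249.5 CPM, Pkm at 1008 and 728.7 CPM, Ldha at 884.8 and 754.0 CPM and Pfkp at 104.6 and 100 CPM. Slc2a3, at 33.6 and 41.8 CPM, and Hk2, at 32.9 and 29.7 CPM, rested on 46 and 38 and on 45 and 27 UMIs. Without cells of 2 or more macrophage UMIs the median log2 ratio was -0.31 and none of the members was 1.5-fold lower. Pgk1 was 1.44-fold (1.22 to 1.70), Aldoa 1.37-fold (1.20 to 1.56) and Gapdh 1.33-fold lower (1.24 to 1.42). Slc2a1 was 1.26-fold lower (0.84 to 1.9) on 62 and 43 UMIs, with an interval that includes 1. In the 50 and 32 cells with a Mki67 or Top2a UMI the median was -0.30. Without those cells the median was -0.74 and 7 members were at least 1.5-fold lower. The share of all genes is given for the whole gate only, so counts in its subsets cannot be set against it.

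Ordered over the 10 combinations of gate and library, the 3 highest levels were all untreated for Aldoa, Gapdh, Pgk1, Eno1, Pkm and Ldha, and the lowest was always treated naive-state CD8 cells. For Gapdh, Eno1 and Ldha untreated Pdcd1-positive CD8 cells came first and untreated Klrg1-positive Foxp3 cells second, without overlap of their intervals, and for Pgk1 and Pkm the order was the reverse. Aldoa did not separate these at counting error (1293 and 1253 CPM). Slc2a1 was highest in untreated Klrg1-positive Foxp3 cells (149.1 CPM) and lowest in untreated naive-state cells (19.6 CPM), and its levels in the 5 treated gates lay between 41.9 and 55.5 CPM, each overlapping its neighbour. Hk2 was highest in treated CD4 cells at 57.5 CPM and lowest in untreated naive-state cells at 6.98 CPM, with overlapping intervals between neighbours from the first to the 9th level.

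Across these 10 sums, the log2 level of single members followed the mean of the 10 with a Pearson correlation from 0.55 (Hk2) and 0.70 (Slc2a3) to 0.98 (Gapdh). Among 2061 other genes that reached 100 CPM in a sum, the 8 most alike were Actg1 (0.985), a cytoplasmic actin, Manf (0.981), an endoplasmic reticulum stress factor, Bsg (0.977), the chaperone of lactate transporters, Cenpa (0.964), the centromere histone, Srp72, Psma1, Ap2m1 and Pdap1 (0.942 to 0.952). The 10 sums share 2 libraries and their depth, so these values describe the likeness and no more.

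The routes after pyruvate were less uniform. Among genes of pyruvate and lactate fate, 11 were at 20 CPM in Pdcd1-positive CD8 cells (median -0.24). Of these, 4 were at least 1.5-fold lower, against 21.2% of genes, and 1 higher, against 29.3%. Slc16a3, the lactate exporter of glycolytic cells, went from 83.8 to 27.9 CPM (-1.58) and Bsg from 382.3 to 222.6 CPM (-0.78), while Mpc2, a subunit of the mitochondrial pyruvate carrier, stood at 88.8 and 107.5 CPM (0.28). Slc16a1, the other main lactate carrier, went the other way, from 22.6 to 45.6 CPM (1.02). In Klrg1-positive Foxp3 cells 5 of 12 were lower, against 13.1% of genes, and none higher, against 16.5% (median -0.25). Slc16a3 stood at 217.7 and 113.0 CPM, Mpc2 at 95.9 and 110.9 CPM and Slc16a1 at 24.7 and 33.7 CPM. Dlat, a subunit of pyruvate dehydrogenase, stood at 22.0 and 13.1 CPM, so it reached 20 CPM only in the untreated library.

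Mitochondrial and side pathways had list medians closer to 0 than the members in Pdcd1-positive CD8 cells. Among all genes tested in this gate, 21.2% were 1.5-fold lower and 29.3% higher. Of 16 tricarboxylic acid cycle genes, 10 were 1.5-fold lower and none higher (median -0.66), with Fh1, fumarase, at 61.9 and 24.2 CPM, Sdhb at 218.6 and 100.3 CPM, Dlst at 47.0 and 50.01 CPM and Ogdh at 71.5 and 83.3 CPM. Of 16 oxidative phosphorylation genes, 7 were lower and none higher (median -0.57), with Uqcrc1 at 147.6 and 76.2 CPM, cytochrome c (Cycs) at 283.2 and 150.4 CPM, Cox4i1 at 937.9 and 921.7 CPM and Cox6c at 637.6 and 642.8 CPM. Of 6 pentose phosphate genes, 1 was lower, transketolase (Tkt) at 318.4 and 125.8 CPM (median of the list -0.47), while Pgd stood at 62.8 and 42.2 CPM, Pgls at 229.2 and 201.7 CPM and Rpia at 43.9 and 47.6 CPM.

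The same lists in Klrg1-positive Foxp3 cells were closer to 0 than the members. Among all genes tested in this gate, 13.1% were 1.5-fold lower and 16.5% higher. Medians were -0.31 for the tricarboxylic acid cycle (2 of 16 lower), -0.18 for oxidative phosphorylation (1 of 16 lower) and -0.19 for the pentose phosphate pathway (1 of 6 lower, Tkt at 270.3 and 161.5 CPM), and none of their genes was 1.5-fold higher. Idh3b stood at 96.5 and 60.3 CPM, Idh3a at 55.3 and 36.7 CPM, Dlst at 45.7 and 46.8 CPM and Ogdh at 70.4 and 79.3 CPM. Pgd, Rpe and Rpia had log2 ratios of -0.53, -0.17 and 0.05. Uqcrc2, at 166.0 and 109.2 CPM, was the 1 oxidative phosphorylation gene past 1.5-fold, while Ndufb8 stood at 235.0 and 174.1 CPM, Ndufa4 at 374.6 and 395.9 CPM and Cox6c at 627.9 and 723.4 CPM. The members, at a median of -0.92, and the other glycolysis enzymes, at -1.36, had lower medians than each of these lists.

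**Figure D5:**
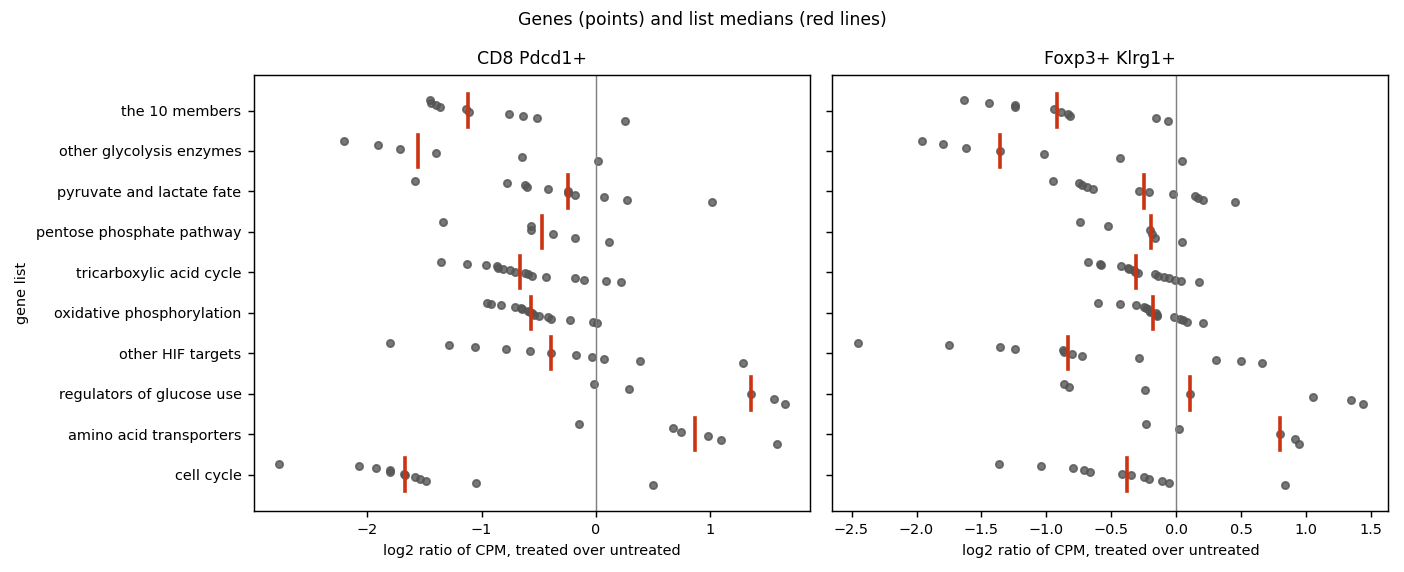
Log2 ratio of CPM, treated over untreated, of the genes (points) of each list that reached 20 CPM, with list medians (red lines), in Pdcd1-positive CD8 cells (left) and Klrg1-positive Foxp3 cells (right). In Pdcd1-positive CD8 cells the members (median -1.12), the other glycolysis enzymes (-1.55) and cell cycle genes (-1.67) lie furthest left, and in Klrg1-positive Foxp3 cells the members (-0.92), other glycolysis enzymes (-1.36) and other HIF targets (-0.84).

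Other targets of HIF followed the members in part. Of 11 at 20 CPM in Pdcd1-positive CD8 cells, 4 were 1.5-fold lower, against 21.2% of genes, and 1 higher, against 29.3% (median -0.39). Ankrd37 went from 70.1 to 20.2 CPM and Mif, a cytokine, from 962.9 to 396.0 CPM, while Bnip3l, a mitophagy receptor, stood at 168.0 and 219.8 CPM and Kdm3a, a histone demethylase that reached 20 CPM only in the treated library, at 16.0 and 39.0 CPM. Among 12 in Klrg1-positive Foxp3 cells, 8 were lower, against 13.1% of genes, and 1 higher, against 16.5% (median -0.84). Ankrd37, which reached 20 CPM only in the untreated library, stood at 71.6 and 13.1 CPM. Bnip3 stood at 69.5 and 20.7 CPM, but Ndrg1 at 89.4 and 126.5 CPM and Egln3 at 35.1 and 55.2 CPM. In naive-state CD8 cells 7 of 11 were higher, against 29.5% of genes, and 1 lower, against 23.5% (median 0.62). But Vegfa, Ankrd37, Ndrg1, P4ha1 and Ero1l among the 7 reached 20 CPM only in the treated library. Vegfa, picked here after its values were seen, had 42 UMIs (2.99 CPM) untreated, of which 10 cells held 59.5%, and 102 UMIs (34.7 CPM) treated.

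The regulators of glucose use had mixed ratios. In Pdcd1-positive CD8 cells, 3 of 5 at 20 CPM were 1.5-fold higher, against 29.3% of genes, and none lower, against 21.2%. This count is set in part by the minimum, since Irf4 and Mlxip reached 20 CPM only in the treated library and Myc was just under it. Among 7 in Klrg1-positive Foxp3 cells, 3 were higher, against 16.5%, and 2 lower, against 13.1%; Irf4 and Mlxip again reached 20 CPM in the treated library alone, as did Epas1. Hif1a, which encodes the oxygen-sensitive HIF subunit, stood at 197.8 and 195.3 CPM in Pdcd1-positive CD8 cells (-0.02) and at 422.7 and 455.3 CPM in Klrg1-positive Foxp3 cells (0.11). Myc, a transcription factor of growth, was at 19.7 and 3.42 CPM in Pdcd1-positive CD8, 45.5 and 24.2 CPM in naive-state CD8 and 16.6 and 8.85 CPM in Klrg1-positive Foxp3 cells. Txnip, an inhibitor of glucose uptake, stood at 92.4 and 112.8 CPM in Pdcd1-positive CD8 (0.29) and was lower in CD4 (236.9 and 107.9 CPM) and other Foxp3 cells (204.0 and 49.5 CPM). Beside Pfkfb3, Txnip was also the other of the 2 lower genes in Klrg1-positive Foxp3 cells. Epas1, the second HIF subunit of this kind, went from 51.4 to 151.3 CPM in Pdcd1-positive CD8 cells, Irf4, a factor of activated T cells, from 11.3 to 29.0 CPM and Mlxip, a glucose sensor, from 15.7 to 49.4 CPM. Arrdc4, related to Txnip, stood in Klrg1-positive Foxp3 cells at 41.3 and 34.99 CPM and Pfkfb3, an activator of phosphofructokinase, at 21.7 and 12.2 CPM. Pfkfb3, 1 of the 2 lower genes of this gate, reached 20 CPM only in the untreated library. Pfkfb4 and Tigar stayed under 20 CPM in all gates.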

How the data were processed

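The authors deposited 1 table of natural log values: each cell was scaled to 10000 UMIs and 1 was added before the log. Per the submitters' processing notes, Cell Ranger and Seurat were used, with no version given. They list the human build GRCh38 for mouse gene symbols, and the table gave no coordinates. Whole UMIs were recovered for 38204229 of 38204229 nonzero values within 0.01, with a median of 6155 per untreated and 5988 per treated cell. Cells above 10% mitochondrial UMIs were removed. Scrublet in scanpy 1.11.5 called only 3 and 1 doublets, so the highest 5% of scores of each library were removed (425 and 365 cells), leaving 8671 and 7355. T cells were those with a UMI of Trac or of the CD3 genes Cd3d, Cd3e and Cd3g, and 5098 and 4718 cells entered the 5 gates. UMIs were summed per gate and library. Genes of a list entered its counts at 20 CPM in 1 of the libraries. A lower gene may thus have reached it only untreated, and a higher gene only treated. One gating marker of the naive-state cells, and the alternative built on it, is not reported here. The ratio intervals were tested on simulated data. The members, gates and lists were chosen with earlier results of these data known. Named by rule were the 10 members, the 2 highest and 2 lowest genes at 20 CPM of each other list in Pdcd1-positive CD8 and Klrg1-positive Foxp3 cells, all regulators of glucose use and the 8 genes most alike. Genes named outside this rule (Vegfa, and markers) were chosen after their values were seen. Alternatives tried were the total, the weight of cells, cell filters, gates, depth, scale, the fold and the expression minimum.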

Additional observations from a re-analysis of the deposited data

Results flagged for a closer look

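Slc2a1 was the gene whose ratio went in opposite directions between gates with 1.5-fold or more in both directions. Its log2 ratio of treated over untreated was 1.31 in naive-state CD8 cells, and -0.64 in Pdcd1-positive CD8, -0.7 in CD4, -1.63 in Klrg1-positive Foxp3 and -0.69 in other Foxp3 cells. In naive-state CD8 cells Slc2a1 was at 19.6 CPM untreated and passed the filter only through the treated library. Without cells of 2 or more macrophage UMIs, its log2 ratios were 1.47, -0.72, -0.49, -1.70 and -0.33 in the same order of gates. The last, a ratio of 0.79 (0.53 to 1.19), has an interval that includes 1. With 1 library per group the difference between gates was not tested.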

How the results depend on the processing

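No paired analysis was possible because each group had 1 library and no result came from a test. Of 460 values of single members under the alternatives, 320 stayed within counting error and none changed sign with a call. Counts of members under alternatives other than the 2-fold mark have no share of all genes beside them. In naive-state CD8 cells the median log2 ratio was -0.09 with each cell weighted equally, -0.11 without cells with macrophage transcripts, -0.10 without cycling cells, -0.02 in cells of 3000 to 10000 UMIs, -0.05 on the deposited log values and -0.46 with no condition on Cd44. There 0 members were higher and 0 lower on the log values, 1 was lower at 2-fold, and 5 were lower with no condition on Cd44. In Pdcd1-positive CD8 cells the median was -1.16 with cells weighted equally, -1.15 without macrophage transcripts, -1.09 without cycling cells, -1.03 at 3000 to 10000 UMIs and also without granzyme C to G cells, -1.06 on the log values and -0.95 without all 3 kinds of cells, a setting chosen after seeing the data. Members higher there numbered 1 at 3000 to 10000 UMIs and 1 without all 3 kinds, in both cases Hk2. In CD4 cells the median was -0.38 with cells weighted equally and without macrophage transcripts, -0.29 at 3000 to 10000 UMIs and -0.08 on the log values. Members higher there numbered 2 with cells weighted equally and at 3000 to 10000 UMIs, and 0 at 5% mitochondrial UMIs, on the log values and at 2-fold; members lower numbered 3 with cells weighted equally, without macrophage transcripts and at 3000 to 10000 UMIs, and 1 on the log values and at 2-fold. In Klrg1-positive Foxp3 cells the median was -1.08 without cycling cells and -0.84 on the log values, and 4 members were lower at 2-fold. In other Foxp3 cells the median was -0.67 with cells weighted equally, -0.74 without cycling cells and -0.80 at 3000 to 10000 UMIs, and members lower numbered 0 without macrophage transcripts, on the log values and at 2-fold, and 7 without cycling cells. With a minimum of 10 UMIs in place of 20 CPM, which admits more genes, the median of the regulators of glucose use went from 1.31 to -0.24 in CD4 and from 0.71 to -0.11 in other Foxp3 cells. Differences of mean log values understate ratios of genes at low counts by construction; the cause of the other moves was not tested. Depth limits Slc2a3 and Hk2 in other Foxp3 cells.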

Other observations

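Several amino acid transporters, from a list of 7, stood higher in the treated library in all 5 gates, also in naive-state CD8 cells. In Pdcd1-positive CD8 cells 5 of 6 at 20 CPM were at least 1.5-fold higher, against 29.3% of genes (median log2 ratio 0.86). None was lower, against 21.2%. Slc38a2, a neutral amino acid importer, was at 170.0 CPM untreated and 510.3 CPM treated, and Slc38a1 at 100.3 and 214.1 CPM. Slc7a6, which reached 20 CPM only in the treated library, stood at 13.3 and 21.2 CPM, and the arginine importer Slc7a1 at 30.5 and 27.6 CPM. Medians were 0.93 in naive-state CD8, 1.17 in CD4, 0.80 in Klrg1-positive Foxp3 and 0.89 in other Foxp3 cells, and none of the genes at 20 CPM was 1.5-fold lower in any gate. In Klrg1-positive Foxp3 cells Slc1a5, the main glutamine importer, stood at 81.7 and 69.6 CPM and Slc3a2 at 348.7 and 354.5 CPM.

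The lactate carrier Slc16a1 had a higher level in the treated library in all 5 gates, with 22.6 and 89.6 CPM in naive-state CD8, 19.1 and 58.7 CPM in CD4, 24.7 and 33.7 CPM in Klrg1-positive Foxp3 and 12.4 and 58.3 CPM in other Foxp3 cells, beside the Pdcd1-positive CD8 values above. In CD4 and other Foxp3 cells it reached 20 CPM only in the treated library.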
